A study of Melitaea cinxia with 174 samples.

Results

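MCINXTMP_011439 is the gene model of the Glanville fritillary butterfly (Melitaea cinxia) that the study calls Patched-related and describes as a Patched domain-containing protein 3. It is 1 of the 16667 gene models counted in the series. It was picked because its level was high and even in the SA population and widely spread in the others, so its values by population chose it. They are given as a description, with no test. The choice rested on the populations and not on a difference between the sexes, although the values were viewed by sex as well. The difference between males and females was tested.

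Patched proteins cross the membrane many times and carry a sterol-sensing domain. In Drosophila, Patched is the receptor of the secreted protein Hedgehog. Without Hedgehog it holds the membrane protein Smoothened inactive, and when Hedgehog binds, Smoothened is released and the transcription factor Cubitus interruptus is no longer processed to its repressor form. Patched-related proteins share the domain structure, but a resemblance to Patched does not make a protein a Hedgehog receptor, and the mouse relative Ptchd3 is known mainly from male germ cells. The gene model of patched itself is a separate one in the butterfly, MCINXTMP_007513.

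RNA of the adult thorax was sequenced from 174 butterflies of 4 regional populations: 63 from Saaremaa (SA), 42 from Öland (ÖL), 20 from Uppland (UP) and 49 from the Åland Islands (ÅL). The habitat of SA and ÖL is continuous and that of UP and ÅL is fragmented. Larvae were taken from the wild in diapause, overwintered and reared singly on Plantago lanceolata under common garden conditions, and the adults were kept for a few days before sampling, with no treatment that separates the groups. The sample held 35 males and 28 females from SA, 27 and 15 from ÖL, 9 and 11 from UP, and 26 and 23 from ÅL.

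The thorax holds flight muscle, fat body, cuticle-forming cells and blood cells together, and fewer cells of a type and less RNA per cell cannot be told apart in such bulk samples. Total counts per butterfly lay between 442717 and 7742394. The 2 troponin C genes taken as markers of flight muscle were read in every butterfly. Of the 50 genes with the strongest sex difference, most lay on the side of the other sex in 4 butterflies, 1 of SA, 1 of ÖL and 2 of ÅL. Values without these 4 are given where they matter. The study also set aside a few ÖL and UP butterflies whose genetic markers went against their labels. Which ones is not given in the sources used here, so all are kept under their labels, and their part in the spread of ÖL and UP was not tested. Leaving out any single butterfly gave a log2 SD of the gene between 1.96 and 2.04 in ÖL and between 1.13 and 1.37 in UP.

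The levels of MCINXTMP_011439 are described first, as normalized counts from the deposited table and as log2(normalized count + 1). In SA the lowest butterfly had a normalized count of 13.4, the median was 490.0 and the highest 1194 (n = 63). In ÖL these values were 10.1, 247 and 1135 (n = 42). In UP they were 14.7, 35.3 and 476 (n = 20), and in ÅL 10.5, 65.1 and 1547 (n = 49). Every population therefore reached down to about the same low level, and the ranges of the 4 populations overlapped along most of their length. What differed was where the butterflies lay within that range: most SA butterflies were near the top, most UP butterflies near the bottom, and those of ÖL and ÅL were strung out between. The gene was read in all 174 butterflies, with raw counts from 8 to 8260, so the low values are not zeros.

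**Figure D1:**
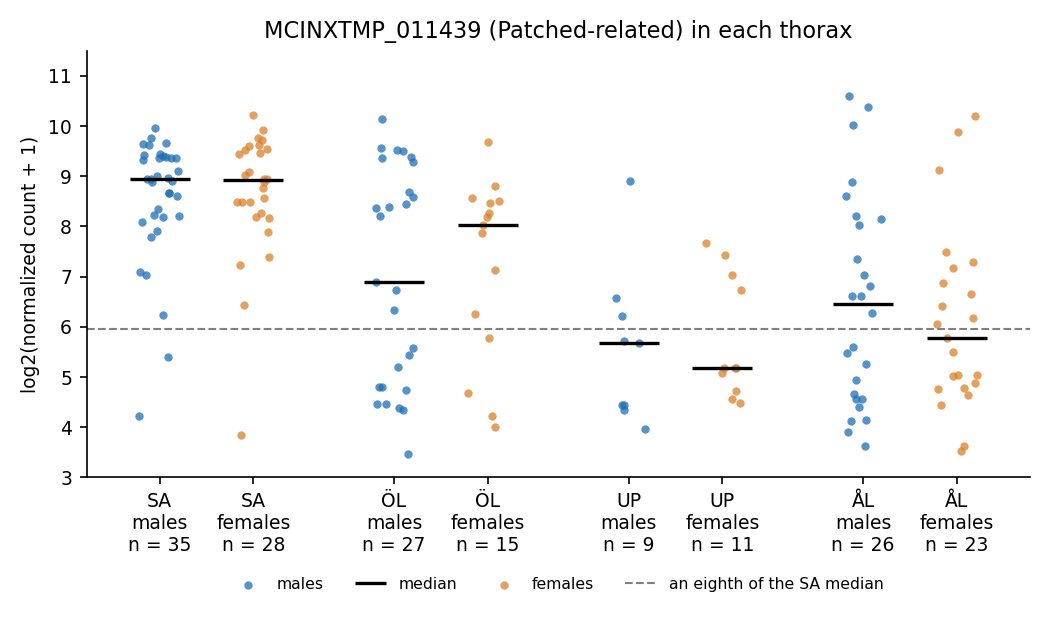
Level of MCINXTMP_011439 in each of the 174 thoraces, as log2(normalized count + 1), by population and sex; points are butterflies, black bars medians, and the dashed line marks an eighth of the SA median (61.2 normalized counts). Most SA males and females lie near their medians of 8.94 and 8.92, with a few low butterflies down to 3.84. ÖL and ÅL butterflies are strung out between about the lowest and the highest level of the plot. In UP most are low and the highest butterfly is at 8.90.

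On the log2 scale SA averaged 8.59 ± 1.26 (SD, n = 63), ÖL 7.08 ± 2.02 (n = 42), UP 5.68 ± 1.34 (n = 20) and ÅL 6.31 ± 1.96 (n = 49). Counting error alone was small beside this, between 0.079 and 0.17 log2 units in the 4 populations. The medians, from high to low, were 8.94 in SA, 7.95 in ÖL, 6.05 in ÅL and 5.18 in UP. Both continuous populations thus had higher medians than both fragmented ones. In the edgeR fit to the counts, fragmented minus continuous populations had a log2 fold change of −1.49 (SE 0.27, given as a description). No 2 neighbours in the order of the medians lay further apart than the spread within them. SA lay 0.99 above ÖL against a pooled SD of 1.68, ÖL 1.91 above ÅL against 1.99, and UP minus ÅL was −0.87 against 1.68. Populations further apart in the order did exceed it: the median of SA was 3.76 above that of UP against a pooled SD of 1.30, 2.89 above that of ÅL against 1.65, and the median of ÖL was 2.77 above that of UP against 1.71. In 92.5% of all pairs of 1 SA and 1 UP butterfly the SA butterfly was the higher, against 81.7% of the pairs of SA with ÅL and 72.4% of those with ÖL.

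SA was the most even population by most measures, but only slightly so by the log2 SD over all butterflies. The ratio of the highest to the lowest normalized count was 89.4 in SA, above the 32.4 of UP. It was 112 in ÖL and 148 in ÅL. The coefficient of variation of the normalized count, the SD divided by the mean, was lowest in SA, at 0.543, against 1.01 in ÖL, 1.31 in UP and 1.7 in ÅL. The 3 highest butterflies held 10.2% of all normalized counts of the gene in SA, 23% in ÖL, 51.9% in UP and 38.5% in ÅL, shares that also depend on the number of butterflies. On the log2 scale the SD of SA (1.26) was close to that of UP (1.34) over all butterflies, but not among the 15 butterflies with the largest total count per population. There the SDs were 0.55 in SA, 2.14 in ÖL, 1.46 in UP and 2.20 in ÅL (n = 15 each), with log2 levels of 8.09 to 9.92 in SA. The 5 lowest SA butterflies were all outside that set. The lower and upper quartiles lay 1.23 log2 units apart in SA, 3.68 in ÖL, 2.08 in UP and 2.57 in ÅL.

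The shapes of the distributions differed too. In SA, 24 of the 63 butterflies lay between 8 and 9 log2 units and 26 between 9 and 10, and only 5 had 122 normalized counts or fewer. In ÖL, 10 butterflies lay between 4 and 5 and 13 between 8 and 9, but only 2 between 7 and 8, so that the population had a low and a high cluster. A mixture of normal distributions, with up to 5 components compared by the Bayesian information criterion, described ÖL best with 2 components, at 4.97 (42.3% of butterflies) and 8.63 (57.7%). For SA it gave a narrow component at 9.02 (80.7%) and a broad one at 6.78. UP was described by 1 component at 5.68. For ÅL the criterion placed 2 components, at 5.42 (74.9%) and 8.98 (25.1%), only 0.53 above a single one, and the butterflies of ÅL were spread over all log2 units from 3 to 11. The study lists Patched-related among the genes whose expression was associated with a nearby SNP, with the same sign in every population. Its list kept only SNPs whose allele frequency also differed significantly between fragmented and continuous landscapes. Whether genotype went with these clusters was not tested.

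**Figure D2:**
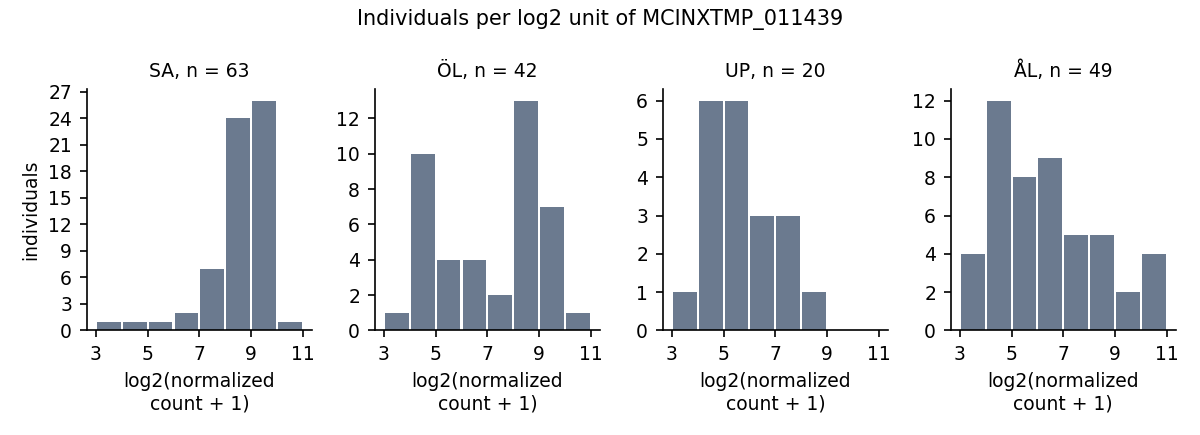
Number of butterflies per log2 unit of MCINXTMP_011439 in each population (horizontal axis log2(normalized count + 1), vertical axis butterflies, with its own scale in each panel). SA has a single peak with 24 and 26 butterflies in the bins from 8 and 9, ÖL has peaks of 10 and 13 in the bins from 4 and 8, and UP and ÅL are highest in the low bins.

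To count low butterflies, an eighth of the SA median, 61.2 normalized counts, served as the limit. At or under it were 3 of 63 butterflies in SA (4.76%, Wilson 95% interval 1.63% to 13.1%) and 15 of 42 in ÖL (35.7%, 23% to 50.8%). In UP there were 13 of 20 (65.0%, 43.3% to 81.9%), and in ÅL 24 of 49 (49%, 35.6% to 62.5%). The counts depend on the limit. At or under 122 normalized counts were 5 SA, 19 ÖL, 16 UP and 33 ÅL butterflies (7.94%, 45.2%, 80% and 67.3%), and at or under 30.6 there were 2, 11, 7 and 16 (3.17%, 26.2%, 35% and 32.7%), so that UP and ÅL lay close together at the lowest limit. The butterflies just under 61.2 had 54, 53.7 and 51.8 normalized counts, and those just over 65.1, 71.4 and 73.3. At the other end, 8 ÖL butterflies, none of UP and 6 of ÅL reached the SA median, and 19, 1 and 9 reached the lower quartile of SA at 293. High butterflies of the SA kind thus occurred in ÖL and ÅL, and 1 in UP. Of the 55 low butterflies in all, 29 had a total count under the median of their population, against 86 of all 174 butterflies, but the 3 low ones in SA all had.

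Over all butterflies, the spread of MCINXTMP_011439 was large beside that of other genes in each population. The gene was picked in part for its wide spread in ÖL, UP and ÅL, so its rank there follows in part from that choice. The ranks are a description. Among the 8976 genes with enough counts to be tested, its SD was larger than that of 96.7% in SA, 99.8% in ÖL, 97.3% in UP and 99.4% in ÅL. Set against genes of similar mean level (within 1 log2 unit) the picture was the same: 6 of 370 genes had a larger SD in SA, 1 of 747 in ÖL, 26 of 1578 in UP and 5 of 1135 in ÅL. The dispersion that edgeR fitted to the counts, a measure of variation between butterflies of the same population and sex, was 1.05 against a median of 0.264 over all genes, and of the 405 genes at or above its average level only 2 had a larger one. In SA this did not hold among the 15 butterflies of the largest total count, where its SD was larger than that of 51.8% of the genes tested and 104 of 291 genes of similar level had a larger one. In the same set its SD was larger than that of 99.8% of genes in ÖL, 97.6% in UP and 99.6% in ÅL.

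**Figure D3:**
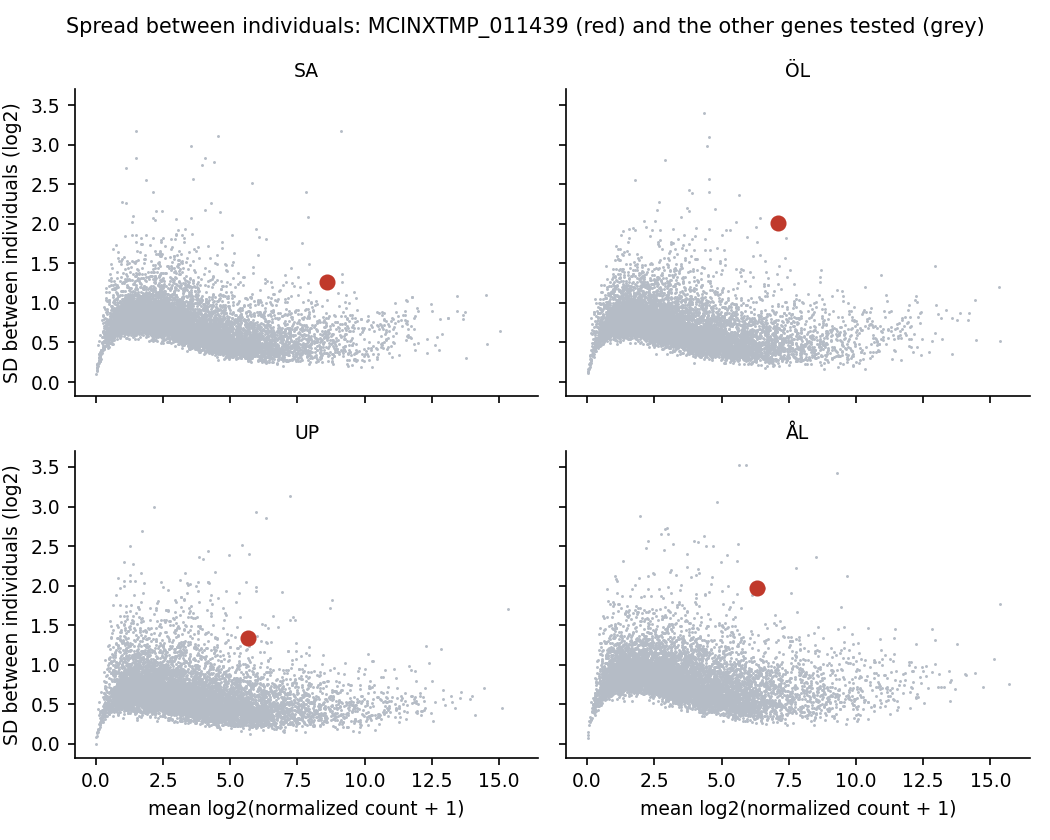
SD between butterflies of log2(normalized count + 1) against the mean, for all 8976 genes tested in each population, with MCINXTMP_011439 in red. The gene lies above nearly all genes of its level in every panel, with SDs of 1.26 in SA, 2.02 in ÖL, 1.34 in UP and 1.96 in ÅL. It was picked in part for its wide spread outside SA.

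The highest butterflies of ÅL stood apart in another measure, the share of all counts taken by the 10 most abundant genes of a butterfly. The 6 ÅL butterflies with the highest level of MCINXTMP_011439 had 1547, 1326, 1180, 1036, 944 and 557 normalized counts, and they held ranks 1, 6, 3, 5, 7 and 2 of 49 by that share, at 32.4% to 48.9% against an ÅL median of 27.6%. Over the 49 ÅL butterflies the level and the share were related, with Pearson's r = 0.54 (permutation p = 8e-05, adjusted 0.00064 over 8 relations) and Spearman's rho = 0.40 (permutation p = 0.00452, adjusted 0.0362). Without the 2 butterflies farthest from the median share, r was 0.41. In SA, ÖL and UP r was 0.18, 0.07 and 0.06, with adjusted permutation p of 0.41, 0.872 and 0.929. Whether ÅL differed from the other populations in this relation was not tested. The level was not detectably related to the total count in any population (r between 0.00 and 0.28, smallest adjusted permutation p = 0.399).

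The same 6 butterflies were raised by the deposited normalization. Their normalized counts were 1.63 to 2.08 times their CPM, the raw count scaled to the total count of the butterfly, against a median ratio of 1.06 in ÅL and 0.872 in SA. By CPM the highest butterfly was in SA, at 1524, and not in ÅL, where the highest had 937. The medians by CPM kept their order, with 547 in SA, 250 in ÖL, 38.7 in UP and 73.3 in ÅL, and the relation of the ÅL level to the share had r = 0.45 on log2(CPM + 1). The highest ÅL butterfly of all, a male, was also 1 of the 4 that resembled the other sex. Without the 4, the highest ÅL butterfly had 1326 normalized counts and the SD in ÅL was 1.89.

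**Figure D4:**
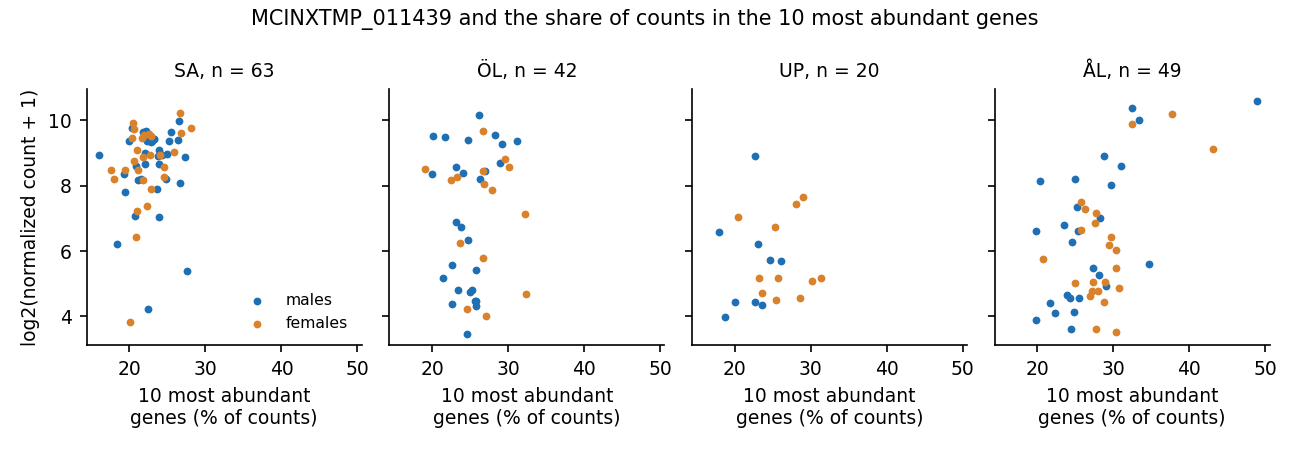
Level of MCINXTMP_011439, as log2(normalized count + 1), against the percentage of a butterfly's counts in its 10 most abundant genes, with a point for each male (blue) and female (orange). In ÅL the highest butterflies lie to the right, at shares of 32.4% to 48.9%, while SA, ÖL and UP show no such tail (r = 0.54 in ÅL, against 0.18, 0.07 and 0.06).

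The values of other tissues were set beside the level. The summed normalized count of the 2 troponin C genes had a median of 1054 in SA, 1201 in ÖL, 1276 in UP and 1542 in ÅL, and its r with the level of MCINXTMP_011439 was 0.08, −0.09, −0.23 and 0.37. The 4 hexamerin genes, storage proteins made by the fat body, ranged in sum between 0 and 14.4 in SA, 0 and 23.2 in ÖL, 0 and 1468 in UP, and 0 and 1170 in ÅL, with r of −0.01, −0.32, −0.10 and 0.09. All 4 were at 0 in 4 butterflies of SA, 5 of ÖL, 1 of UP and 2 of ÅL. The 8 antimicrobial peptide genes, made on infection by fat body and blood cells, summed to between 5.35 and 998 in SA, 6.33 and 743 in ÖL, 11.3 and 1504 in UP, and 18.1 and 15050 in ÅL, with r between −0.08 and 0.02. These lists hold genes that the study picked from these butterflies, and their part in the level of MCINXTMP_011439 was not tested.

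The level did not differ detectably between males and females. In SA, males had a lowest, median and highest log2 level of 4.23, 8.94 and 9.97 (n = 35) and females 3.84, 8.92 and 10.22 (n = 28). In ÖL the values were 3.47, 6.90 and 10.15 in males (n = 27) and 4, 8.04 and 9.68 in females (n = 15). UP males had 3.97, 5.69 and 8.90 (n = 9) and UP females 4.49, 5.18 and 7.67 (n = 11). ÅL males had 3.62, 6.45 and 10.60 (n = 26) and ÅL females 3.52, 5.77 and 10.21 (n = 23). The sexes overlapped over nearly their whole ranges in each population, and the wide spread of ÖL and ÅL was found within each sex, with SDs of 2.15 in males and 1.80 in females of ÖL and of 2.11 in males and 1.81 in females of ÅL.

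By edgeR's quasi-likelihood test with Benjamini-Hochberg adjustment over all genes, the log2 fold change between males and females, averaged over the populations, was 0.26 (SE 0.27, 95% interval −0.26 to 0.78, adjusted p = 0.54). In the same comparison 22.7% of the 8976 genes passed the threshold of 0.05. Within the populations the log2 fold changes of males over females were −0.08 (SE 0.40, adjusted p = 0.947) in SA and 0.23 (SE 0.51, adjusted p = 0.862) in ÖL. They were 0.31 (SE 0.72, adjusted p = 0.972) in UP and 0.58 (SE 0.46, adjusted p = 0.452) in ÅL. The test called 11% of all genes in SA, 9.2% in ÖL, 0.813% in UP and 13.2% in ÅL. The intervals were wide, from −0.87 to 0.71 in SA, −0.77 to 1.23 in ÖL, −1.09 to 1.72 in UP and −0.32 to 1.47 in ÅL, so that a difference of 1 log2 unit lay within them in ÖL, UP and ÅL. The fit gave the gene 1 dispersion for all groups, so these SEs and intervals do not measure the spread of each population by itself. The same test fitted within each population alone gave −0.07 in SA (adjusted p = 0.901) and 0.24 in ÖL (0.823). It gave 0.33 in UP (0.876) and 0.60 in ÅL (0.560). The sex difference did not detectably vary between the populations (interaction, adjusted p = 0.942, with 0.702% of all genes called). Without the 4 butterflies that resembled the other sex, the log2 fold change in ÅL was 0.20 (adjusted p = 0.832).

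**Figure D5:**
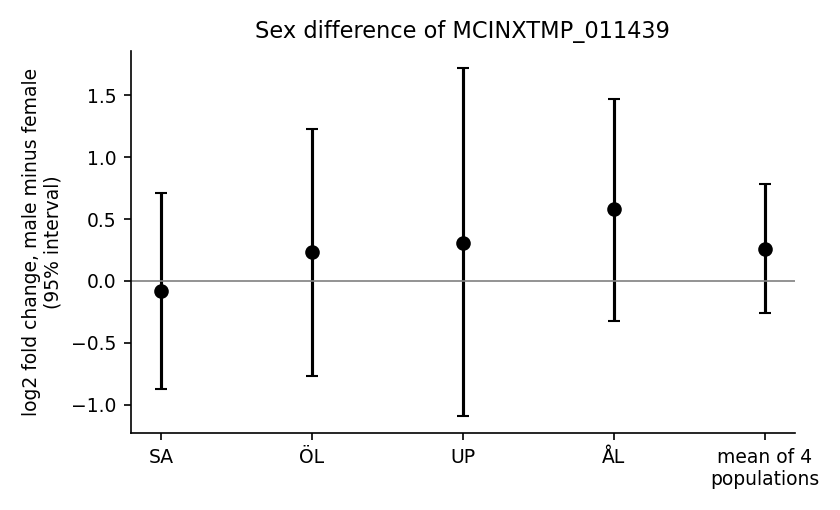
Log2 fold change of MCINXTMP_011439 between males and females (males over females) in each population and averaged over the 4, with 95% intervals from the edgeR fit, in which all populations share 1 dispersion. All 5 intervals include 0, and the estimates run from −0.08 in SA to 0.58 in ÅL.

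The share of low butterflies did not differ detectably between the sexes either. At or under an eighth of the SA median were 2 of 35 males and 1 of 28 females in SA, and 11 of 27 males and 4 of 15 females in ÖL. In UP there were 6 of 9 males and 7 of 11 females, and in ÅL 12 of 26 males and 12 of 23 females. Fisher's exact test, two-sided, gave an adjusted p of 1 in each population, with unadjusted values of 1 in SA, 0.506 in ÖL, 1 in UP and 0.778 in ÅL. The low cluster of ÖL thus held butterflies of both sexes.

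No other gene followed the level of MCINXTMP_011439 closely. The largest Pearson's r with it, on log2(normalized count + 1) over the 174 butterflies, was 0.51 (MCINXTMP_003164, rho = 0.44) and the most negative was −0.53 (MCINXTMP_013843, rho = −0.54). These butterflies share their populations, and the likeness lay partly between them: MCINXTMP_003164 had a median log2 level of 2.46 in SA and 0 in each of the other populations, and within ÖL, UP and ÅL its r with MCINXTMP_011439 was −0.12, 0.00 and 0.10. Among the 3 most negative was MCINXTMP_009070, which the study describes as the protein Dorsal, a transcription factor of immune and embryonic patterning genes in Drosophila (r = −0.49 over all butterflies, but 0.14 within SA, −0.11 within ÖL, 0.06 within UP and −0.68 within ÅL).

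With the population means taken out, over the 111 butterflies of ÖL, UP and ÅL, the largest r was 0.41 (MCINXTMP_008548, rho = 0.30) and the most negative −0.48 (MCINXTMP_007511, rho = −0.42). The median gene found a closer partner, with a largest r of 0.51, and of the 678 genes within 1 log2 unit of its level only 14 (2.06%) had a smaller largest r. Over all 174 butterflies the corresponding count was 145 of 678 (21.4%). There the median gene had a largest r of 0.49, and 56.2% of all genes had a smaller one than MCINXTMP_011439. Its largest r over all butterflies was thus ordinary among all genes. Ranking by Spearman's rho shared 1 of the 5 most positive genes in both analyses, so the names at the top of these lists depend on the measure.

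The genes of hedgehog signaling were taken from the list of 95 gene models that the study matched to Drosophila. The list does not hold MCINXTMP_011439, although the study's text counts Patched-related among the genes of hedgehog signaling. Several gene models of the list are matched to the same Drosophila gene. Of the 95, 65 passed the filter on low counts. None of the 65 varied as much within populations as MCINXTMP_011439. The median SD of their log2 levels around the population means was 0.72 and the largest 1.34, against 1.69 for MCINXTMP_011439. Sex was not taken out of these SDs. MCINXTMP_011439 was picked in part for its wide spread outside SA, so its place above the 65 follows in part from that choice. Their r with it over the 174 butterflies ran from −0.45 (MCINXTMP_011624, matched to the protein kinase Pka-C3) to 0.37 (MCINXTMP_005137, matched to the endocytic receptor Megalin).

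For SA minus the mean of ÖL, UP and ÅL, the comparison in which MCINXTMP_011439 had a log2 fold change of 1.57 (SE 0.26, given as a description, with 2.28 by limma-voom and 2.22 with that share of the 10 leading genes added to the fit), 30 of the 65 pathway genes passed the threshold by edgeR's quasi-likelihood test. This is 46.2%, against 52.6% of all 8976 genes, so a call was no more frequent among them than among all genes. Of the 30, 22 were higher in SA and 8 lower, against 26% of all genes called higher and 26.6% called lower, and the median log2 fold change was 0.07 in the pathway and 0.00 over all genes. The 22 include models near the floor, such as MCINXTMP_006136, described below, and MCINXTMP_011600. The latter, matched to Megalin, had medians of 0.362 in SA, 0.38 in ÖL, 0.26 in UP and 0 in ÅL. Whether such models passed the filter on low counts through SA alone was not tested, so this lean towards SA is not read as a result. With only the 15 butterflies of the largest total count per population, 16 pathway genes passed, 11 higher and 5 lower.

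The ligand and the receptors come first. MCINXTMP_007389, matched to hedgehog, had median normalized counts of 2.28 in SA, 1.73 in ÖL, 4.81 in UP and 4.32 in ÅL. It did not pass the test of SA against the others (log2 fold change −0.27, SE 0.18, edgeR adjusted p = 0.202). Its medians were higher in both fragmented populations than in both continuous ones, a split that this test does not address. The study, by its own contrast of the landscapes, reported hedgehog as higher in the fragmented ones. MCINXTMP_007513, matched to patched, had medians of 0.307, 0.317, 0.57 and 0 in SA, ÖL, UP and ÅL and was too low to be tested. Its r with MCINXTMP_011439 was 0.03. Of the 3 gene models matched to smoothened, MCINXTMP_008487 was also too low, with medians of 0.527, 0.665, 1.03 and 0.922. MCINXTMP_000111, the only one of the 3 that was tested, was higher in SA, with medians of 48.6 in SA, 35.9 in ÖL, 29.3 in UP and 29 in ÅL (log2 fold change 0.65, edgeR adjusted p = 9.44e-13). It was named after its values were seen.

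Among the intracellular members, the models matched to shaggy, Pka-C1, Pka-C3 and fused included some called higher and some called lower in SA. Other matches did not go opposite ways. Of the 5 models matched to Cubitus interruptus, 4 were tested, and 2 were higher and none lower in SA. Of the 9 models matched to the kinase shaggy, which phosphorylates Cubitus interruptus, 7 were tested, and 2 were higher and 1 lower in SA. The lower one was MCINXTMP_012496, with medians of 6.31 in SA, 12.8 in ÖL, 14.4 in UP and 8.22 in ÅL (log2 fold change −0.72, SE 0.12, edgeR adjusted p = 1.86e-07). The higher ones were MCINXTMP_010351 (0.98, edgeR adjusted p = 1.81e-09) and MCINXTMP_006827 (0.33, edgeR adjusted p = 0.000534). Of the 2 models matched to Casein kinase Ialpha, another kinase of that step, MCINXTMP_014722 was lower in SA, with medians of 1.84 in SA, 4.10 in ÖL, 2.80 in UP and 5.74 in ÅL (log2 fold change −1.13, SE 0.21, edgeR adjusted p = 1.25e-06), and MCINXTMP_014721 did not pass (0.08, edgeR adjusted p = 0.575).

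Of the 11 models matched to Pka-C1, a catalytic subunit of protein kinase A, 6 were tested, and 3 were higher and 1 lower in SA. The furthest apart were MCINXTMP_000883 (log2 fold change 1.75, edgeR adjusted p = 2.04e-16) and MCINXTMP_010872 (−1.07, edgeR adjusted p = 1.65e-05), while MCINXTMP_001964 was too low to be tested. Of the 14 models matched to the kinase fused, 9 were tested, and 3 were higher and 2 lower in SA. MCINXTMP_008220, the best match, was not among them (−0.11, edgeR adjusted p = 0.585). Of the 2 models matched to supernumerary limbs, part of a ubiquitin ligase, MCINXTMP_015687 was higher in SA (0.21, edgeR adjusted p = 0.00173) and MCINXTMP_007311 did not pass (−0.66, edgeR adjusted p = 0.0926).

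Of the 3 models matched to the vesicle protein Rab23, an inhibitor of the pathway in mouse, 2 were higher in SA and none lower. MCINXTMP_006136 was higher by 1.68 log2 units (SE 0.35, edgeR adjusted p = 2.65e-06), but its medians were only 0.185 in SA, 0.0925 in ÖL, 0.29 in UP and 0 in ÅL. At this level, with a median in UP above that in SA, its call is not read as a difference between populations. It is included in the count of pathway genes called higher in SA. Whether it passed the filter on low counts through SA alone was not tested. Neither of the 2 models matched to costa passed, nor the 1 matched to gilgamesh (0.29, edgeR adjusted p = 0.052). Of the 2 models matched to wingless, a target of the pathway, MCINXTMP_006032 was too low to be tested and MCINXTMP_013043 did not pass (0.34, edgeR adjusted p = 0.131). Where a second model of a match is given here, it was added after its values were seen.

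Between males and females, 10 of the 65 pathway genes passed (15.4%, against 22.7% of all genes), 7 higher and 3 lower in males, against 11.8% and 10.9% of all genes. The balance of directions depended on the fit, with 8 higher and 9 lower by limma-voom and 7 each once that share was added to the fit. The model matched to hedgehog was not among the 10 (edgeR adjusted p = 0.261). The strongest was MCINXTMP_002027, matched to Pka-C1, higher in males by 1.59 log2 units (SE 0.22, edgeR adjusted p = 3.83e-10), likewise named after its values were seen.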

How the data were processed

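The authors sequenced poly-A anchored, strand-specific thorax libraries, so that counts do not scale with gene length. The notes of the submitters name CASAVA 1.7, TopHat2 2.0.5 and edgeR; the counting tool is not given in the sources used here. The deposited files hold whole-number read counts for 16667 gene models per butterfly and a table of TMM-normalized counts, a signal that the authors derived from those counts. Per the study, 1 larva per family was sequenced.

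Levels were taken as log2(normalized count + 1). Counts were tested with edgeR 4.0.16 (R 4.3.3, TMM, filterByExpr with minimum count 10, quasi-likelihood, 1 mean for each of 8 groups of population and sex, all 174 butterflies, threshold 0.05 after Benjamini-Hochberg adjustment). The same code was tested on simulated data. Alternatives used limma 3.58.1, DESeq2 1.42.0, RLE size factors, other filters, covariates, a balanced set and permutation tests (100000). Mixtures used mclust 6.1.1 and the remainder scipy 1.17.1. Intervals for shares are Wilson intervals at 95% and cover the sampling of butterflies only. The p-values treat individual butterflies as the units. Each region is 1 population, so butterflies do not replicate a difference between populations. The gene and lists were chosen with earlier results of these data known. Named were the most alike genes by Pearson's r (5 positive and 3 negative; those with no name in the sources are mostly summarised) and 12 pathway genes that the study matched by name. The sequencing centre of a butterfly is not given in the sources used here.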

Additional observations from a re-analysis of the deposited data

How the results depend on the processing

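The sex difference of MCINXTMP_011439 passed the threshold under none of 63 alternatives (adjusted p between 0.171 and 1). Its sign was not stable. A permutation test on log2 normalized counts gave −0.02 for the mean, −0.23 in ÖL and −0.16 in UP, limma-voom gave −0.23 in ÖL and −0.13 in UP, and the balanced set of 60 gave 0.05 in SA. Values in ÖL reached 1.80 in the balanced set. With a sixteenth of the SA median as the limit, males minus females in the share of low butterflies was −0.714 percentage points in SA and 4.18 in ÅL, of the opposite sign to the main values of 2.14 and −6.02. The cause was not tested. The counts of pathway genes called changed by more than 1.5 times in 3 settings, and the count lower in males in 2 more. Requiring at least 10 counts in every butterfly left 16 pathway genes, of which 5 were called by sex and 8 for SA minus the others, and removed MCINXTMP_011439 itself, whose lowest count was 8. The balanced set gave 4 by sex and 16 for SA, and limma-voom gave 17 by sex. Against 3 genes lower in males, a covariate of log2 total count gave 5, and the share of the 10 most abundant genes gave 7. The SD of the level in SA was 0.55 in the balanced set against 1.26 over all butterflies. Medians moved by less than 1 SD, and the other SDs by less than 1.5 times, with pseudocounts of 0.5 and 5, CPM, the balanced set and, chosen after seeing the data, without the 4 butterflies that resembled the other sex or any single butterfly. No paired analysis was possible because the butterflies carry no pairing across populations or sexes.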
